A study of Homo sapiens with 40 samples.

Results

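A small set of genes is kept at low levels in mature pancreatic beta cells although most other tissues express them, and these are called disallowed genes. To see how the chromatin of such genes differed between senescent and non-senescent beta-like cells, 10 of them were followed: LDHA, SLC16A1, HK1, REST, ACOT7, OAT, MAF, PDGFRA, ZYX and MGST1, out of 19676 protein-coding genes with annotated start sites in GENCODE release 44. The peaks of a gene were all those within 2 kb of one of its start sites (promoter), within its transcribed body (gene body), or nearest to its start site and at most 100 kb away (distal). This gave 24 of the 51489 peaks of H3K27ac, an acetylated histone found at active promoters and enhancers, and 34 of the 51457 peaks of CTCF, a DNA-binding protein that anchors chromatin loops.

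The cells were EndoC-βH3, a human beta-like line of fetal pancreatic origin that carries hTERT and SV40 large T antigen as transgenes. A Cre recombinase that tamoxifen activates (CreER) can cut both out. Senescent cells had been treated with 4-hydroxytamoxifen (4-OHT) for 3 weeks, and non-senescent cells of the same line and labelled genotype had not, so the loss of the transgenes, the agent itself and senescence cannot be told apart in these groups. H3K27ac and CTCF had been measured by chromatin immunoprecipitation and sequencing in 3 non-senescent and 3 senescent libraries each, from the same stated number of cells. The labels do not say whether the 3 libraries of a group came from separate cultures, so the errors given here cover the spread between libraries, which may be technical.

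In most tissues, pyruvate made by glycolysis can be reduced to lactate by lactate dehydrogenase A (LDHA) and leave or enter the cell through monocarboxylate transporter 1 (SLC16A1). A beta cell couples glucose to insulin release through mitochondrial oxidation of pyruvate. Low LDHA and SLC16A1 keep pyruvate from exercise or infusion from triggering insulin release, and low HK1, a hexokinase of high affinity, keeps the cell from responding to low glucose. REST, a repressor of neuronal genes, is kept low because beta cells share many of those genes with neurons.

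The deposited tables give, for each peak, the mean normalized read count over the libraries and the log2 fold change of senescent over non-senescent with its standard error, and no value per library. The mean counts of the 2 states quoted here are those that the deposited mean and fold change imply for groups of equal size. A peak was called gained or lost when the fold change was above 1.5 and the adjusted p was under 0.05 (H3K27ac) or 0.2 (CTCF). Every interval is the 95% interval from the deposited standard error. Because size factors centre the values on an unchanged typical peak, a shift of a mark across the whole genome cannot be seen, and the log2 fold change had a median over all peaks of 0.0075 for H3K27ac and -0.012 for CTCF. The direction of the scale was checked at the H3K27ac promoter peaks of MKI67, a proliferation marker (log2 fold change -2.29 ± 0.14, SE), and of the cell-cycle inhibitor CDKN1A (2.50 ± 0.16). The labelled cell type was checked at promoters. All 10 beta cell markers looked up, among them INS, PDX1 and NKX6-1, had an H3K27ac promoter peak, whereas 0 of 7 fibroblast or stellate cell markers and 0 of 3 endothelial markers did. The peak of MAFA was weak, with a mean count of 43.6. Peaks were also found at 3 of 4 alpha cell, 3 of 4 delta and PP cell, 1 of 5 acinar, 1 of 3 duct and 1 of 2 immune cell markers. Peak presence therefore does not separate beta cells from other islet cells.

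The promoters of both lactate genes lost H3K27ac in senescent cells, and these were the only H3K27ac promoter peaks called among the 10 genes. At LDHA the peak chr11:18393760-18397379 (hg38), which holds annotated start sites and the start of the gene, had a mean count of 584 in non-senescent and 364 in senescent cells. That is 0.623 times the non-senescent level (interval 0.535 to 0.726), a log2 fold change of -0.68 ± 0.11 (SE) with an adjusted p of 1.61e-08. At SLC16A1 the peak chr1:112955147-112956991, which also holds a start of the antisense transcript SLC16A1-AS1, fell from 189 to 71.6 counts, to 0.379 times its level (interval 0.290 to 0.495), a log2 fold change of -1.40 ± 0.20 with an adjusted p of 2.51e-11. The intervals of the LDHA and SLC16A1 log2 fold changes, -0.90 to -0.46 and -1.79 to -1.01, did not overlap. A lower count in the cell population cannot tell fewer cells that carry the mark from less of the mark in each cell.

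Among the promoter peaks of all protein-coding genes (the peak with the highest mean count of each), 1168 of 13059 were called lost, 8.94%, and 411 were called gained, 3.15%. At the 10 genes 2 of 6 promoter peaks were called lost and 0 were gained. In H3K27ac read count per kilobase of peak, LDHA (131 counts per kb) stood at percentile 30.8 of gene promoters and SLC16A1 (70.7 counts per kb) at percentile 10.5, so neither was among the strongly marked promoters.

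**Figure D1:**
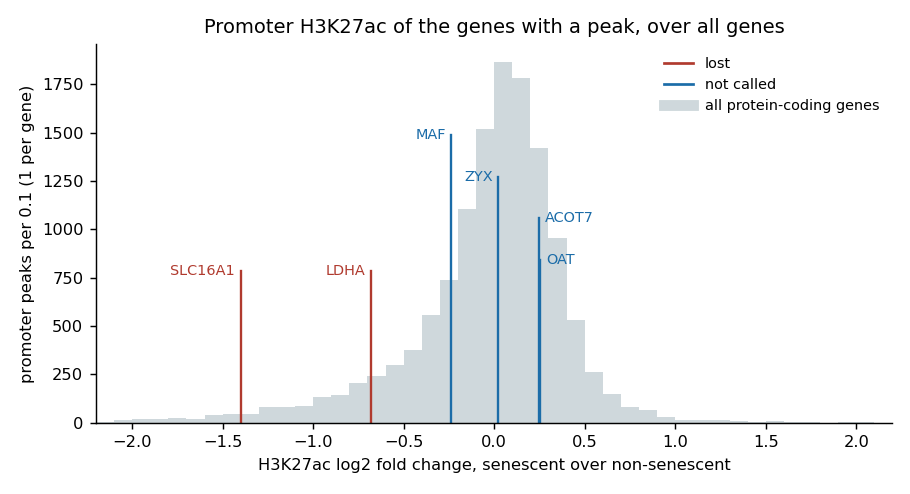
The histogram shows the H3K27ac log2 fold change (x axis) of 1 promoter peak for each of 13059 protein-coding genes (y axis, number of peaks per step of 0.1), and lines mark the 6 of the 10 genes with a promoter peak. SLC16A1 at -1.40 and LDHA at -0.68 (red) lie in the left tail, and MAF, ZYX, ACOT7 and OAT (blue) lie between -0.24 and 0.25.

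The RefSeq promoter of LDHA is shown because its H3K27ac was lost and its sequence holds recognizable motifs. The bases are those of GRCh38.p14, chr11:18394313-18394559 on the + strand, ending just before the annotated beginning of the gene, and capitals mark 2 E-boxes (CACGTG, the site of MYC and USF factors) and 1 cAMP response element (CRE, TGACGTCA).

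LDHA promoter: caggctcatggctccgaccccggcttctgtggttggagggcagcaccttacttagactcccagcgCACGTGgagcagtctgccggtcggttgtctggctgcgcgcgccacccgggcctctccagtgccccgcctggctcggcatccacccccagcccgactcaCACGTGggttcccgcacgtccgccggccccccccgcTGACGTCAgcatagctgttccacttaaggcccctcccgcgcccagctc

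The E-boxes begin 185 and 87 bases and the CRE 51 bases before the RefSeq start. Searched on both strands, the E-box was present in 7.26% of the 35116 RefSeq promoter windows around gene starts, the CRE in 1.85% and both motifs in 0.162%. A window with 2 or more E-boxes was found in 0.664%. The last 2 shares were computed after the LDHA sequence had been seen. RefSeq windows were matched for 9 of the 10 genes, 23 windows in all, and SLC16A1 had no entry. Of these 23 windows, 1 held an E-box, 2 held a CRE (LDHA and MAF, the latter 45 bases before the start), 4 held an AP-1 motif (TGANTCA, in 7.71% of all windows), 9 held CCAAT (34.6% of all) and 1, of MGST1, held an E2F motif (TTTCGCGC or TTTGGCGC, 1.15% of all). Motif matches describe these windows only.

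Beside the promoter, LDHA had 1 further H3K27ac peak 14634 bp upstream. It was weak, with a mean count of 37.4, and its log2 fold change of -0.70 ± 0.34 did not pass the threshold (adjusted p = 0.0873). SLC16A1 had no other H3K27ac peak under the rule. The 14 other H3K27ac peaks within 500 kb of the LDHA start had a median on that scale of 0.17, with 2 gained and 0 lost. Around SLC16A1, 17 other peaks had a median of -0.01, with 2 gained and 3 lost.

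HK1 had no H3K27ac peak in its 132 kb body or within 2 kb of any of its 17 annotated start sites in the table analysed here. The nearest peak to any of those start sites was 66833 bp away and belonged, by distance, to another gene. PDGFRA, the receptor for platelet-derived growth factor and a marker of mesenchymal cells, likewise had 0 H3K27ac peaks, with the nearest 119791 bp from a start site. MGST1 and REST had peaks in their gene bodies and none at a promoter. Of all protein-coding genes, 66.4% had a promoter peak, and of the 10 genes 6 did.

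**Figure D2:**
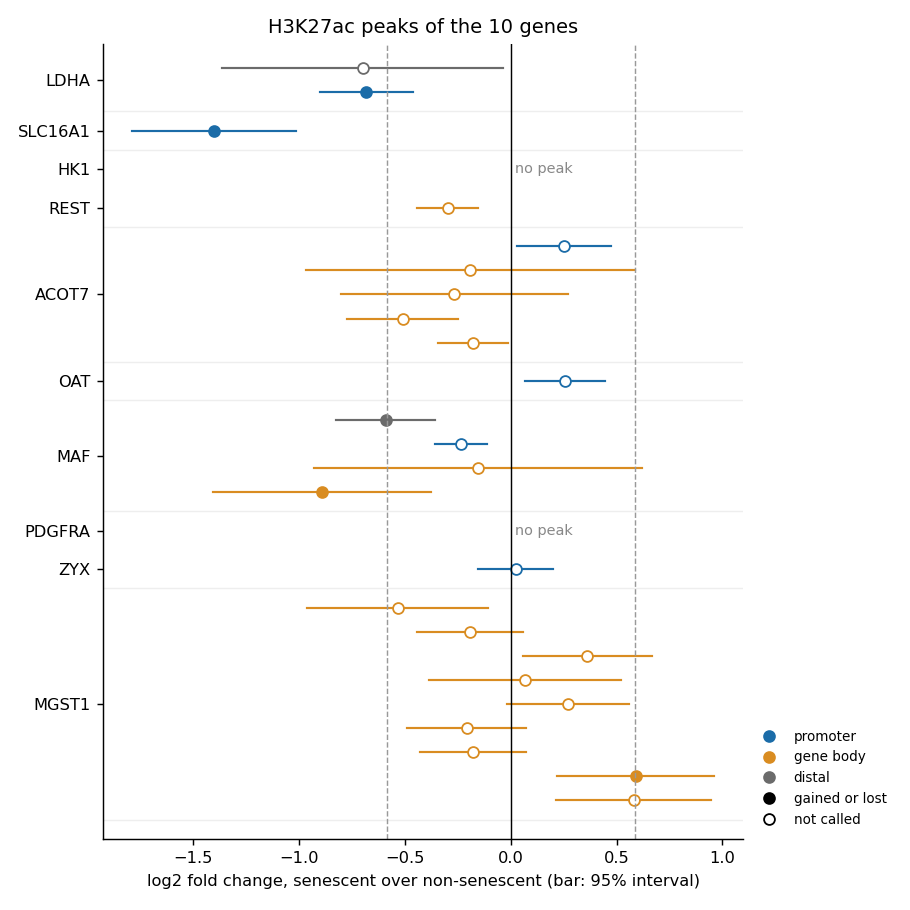
The H3K27ac log2 fold change (x axis) of all 24 peaks, grouped by gene (y axis) and ordered from upstream to downstream within each, with 95% intervals. Filled points were called, dashed lines mark a fold change of 1.5, and the called points are the promoters of SLC16A1 and LDHA and the 2 lost MAF peaks on the left and 1 MGST1 gene body peak on the right.

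Over the 24 H3K27ac peaks, 4 were called lost, against 13.1% of all peaks, and 1 was called gained, against 9.47% of all peaks. The 4 lost peaks lay at 3 genes, LDHA, SLC16A1 and MAF. The log2 fold change was below 0 at 16 of the 24 and at 25449 of the 51489 peaks of the table, and the median was -0.19 over the 24. By place, 2 of 6 promoter peaks, 1 of 16 gene body peaks and 1 of 2 distal peaks were lost.

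MAF, a bZIP transcription factor found in alpha cells and in many other tissues, had the highest H3K27ac count per kilobase among the promoters of the 10 genes. Its promoter peak, chr16:79594991-79603885, spanned 8895 bp and had 500 counts per kb, percentile 97.4 of gene promoters. The peak went from 4809 counts in non-senescent to 4084 in senescent cells. With its log2 fold change of -0.24 ± 0.06 it passed the adjusted p (0.000675) and not the fold threshold, and it was not called. The 2 lost peaks of MAF lay on either side of that promoter. The gene body peak, chr16:79589044-79590257, overlaps no exon of the canonical transcript and fell from 89.9 to 48.4 counts, a log2 fold change of -0.89 ± 0.26 (adjusted p = 0.00279). It coincides with an enhancer region that is listed for non-senescent cells and overlaps none listed for senescent cells. The distal peak, chr16:79655525-79658498, is 54788 bp upstream of the nearest MAF start and fell from 496 to 329 counts, a log2 fold change of -0.59 ± 0.12 (adjusted p = 6.53e-06). It overlaps an enhancer region of each state, and a non-coding transcript, LINC01229, starts nearer to it, 17550 bp away. The other gene body peak of MAF, with a mean count of 30.7, had a log2 fold change of -0.16 ± 0.40.

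Within 500 kb of MAF, the 14 further H3K27ac peaks that the rule did not assign to it had a median of -0.54 on the log2 fold change scale, with 5 lost and 0 gained. This was the lowest such median among the 10 genes, which otherwise ranged from -0.25 around PDGFRA to 0.37 around ZYX.

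REST had 1 H3K27ac peak, chr4:56956801-56961318, in its gene body and overlapping no exon of the canonical transcript. It had a mean count of 1216 in non-senescent and 989 in senescent cells, a log2 fold change of -0.30 ± 0.07 that passed the adjusted p (0.000277) and not the fold threshold. It lies 51160 bp into the gene, nearer to the start site of NOA1 (16288 bp away), and overlaps an enhancer region of each state.

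At the promoters of OAT and ACOT7, enzymes of amino acid and lipid metabolism, the fold change was under 1.5. OAT, ornithine aminotransferase of mitochondria, had its only H3K27ac peak at the promoter (chr10:124417092-124419818), with 604 counts in non-senescent and 720 in senescent cells. Its log2 fold change was 0.25 ± 0.10 with an adjusted p of 0.0243, and the interval of the fold, 1.05 to 1.36, ended under 1.5. ACOT7, an acyl-CoA thioesterase, had a promoter peak (chr1:6392786-6394973) of 340 and 404 counts, a log2 fold change of 0.25 ± 0.11 with an adjusted p of 0.0663. With the trend on GC content removed, this promoter measured 0.41 (adjusted p of the Wald test 0.0012), still under the fold threshold. Each of the 4 ACOT7 gene body peaks had a log2 fold change below 0, from -0.51 to -0.18. The ACOT7 body peak of highest mean count (1023) measured -0.18 ± 0.08 and was not called, and the peak at -0.51 ± 0.13 passed the adjusted p (0.000636) alone. Both lie near the 3′ end of the gene, closer to a start site of GPR153 than to one of ACOT7.

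ZYX encodes zyxin, a protein of focal adhesions. Its promoter peak (chr7:143379780-143382207) had 645 counts in non-senescent and 655 in senescent cells. The log2 fold change was 0.02 ± 0.09, and the interval of the fold was 0.898 to 1.15.

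MGST1, a membrane-bound glutathione transferase, has an annotated body of 262 kb that reaches over the start of a neighbouring gene, LMO3. All of its 9 H3K27ac peaks lay in this annotated body and overlapped no exon of the canonical transcript, whose extent was not checked. Of the 9, 1 was called gained, chr12:16561360-16563708. It went from 113 to 170 counts, a log2 fold change of 0.59 ± 0.19 (adjusted p = 0.00656), and at 1.51-fold it lay barely past the threshold. The call was lost when the values were centred on the median of all peaks (0.58) and when the trend on GC content was removed (0.51). Another peak, at the LMO3 start, had a log2 fold change of 0.58 ± 0.19 and lay barely inside it, and both are nearer to LMO3 than to MGST1. The peak of highest mean count (398) measured -0.18 ± 0.13, and that closest to an MGST1 start, at 34819 bp, measured -0.53 ± 0.22 (adjusted p = 0.0387). The 9 peaks thus pointed in both directions, 5 above 0 and 4 below. The gained peak overlapped an enhancer region listed for non-senescent cells and none listed for senescent cells, although its H3K27ac count was higher in senescent cells. Per the paper's methods these lists also require H3K4me1, another histone mark, so they need not follow the H3K27ac count.

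**Figure D3:**
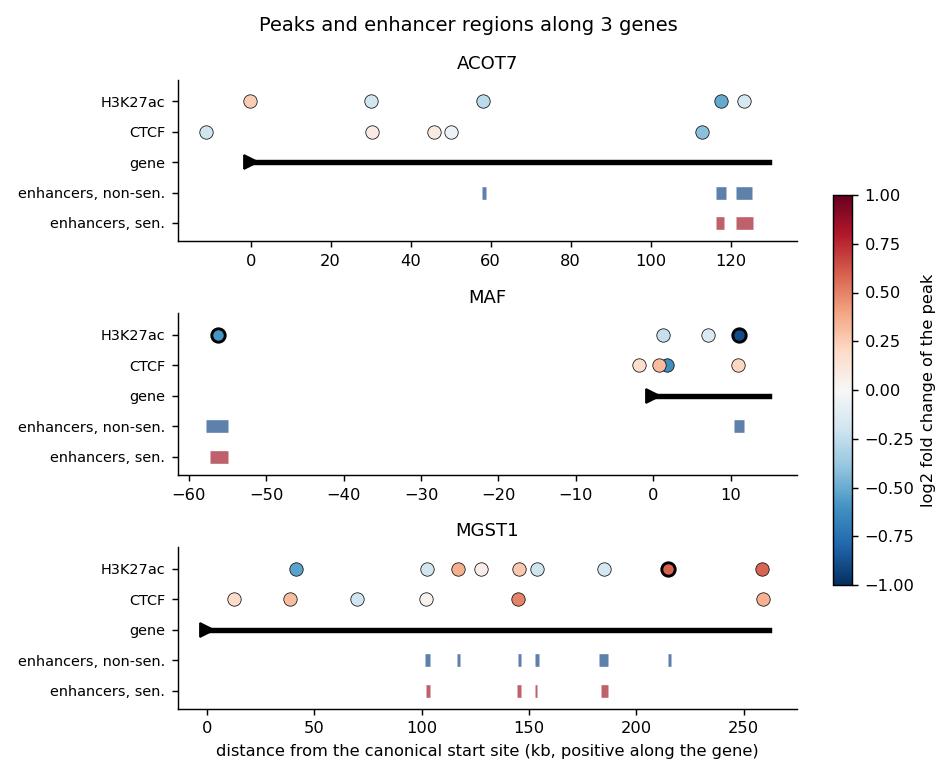
Peaks and enhancer regions along ACOT7, MAF and MGST1, by distance from the canonical start site in kb (x axis). Points are H3K27ac and CTCF peaks coloured by log2 fold change, with a heavy outline where called, bars are the enhancer regions listed for each state, and the black line is the gene. Both called MAF peaks, 56 kb before and 11 kb after the start, are blue, and the called MGST1 peak is near the far end of the gene.

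The deposited lists of enhancer regions, one for each state, held 12 regions at the 10 genes for non-senescent cells (of 14886) and 8 for senescent cells (of 13076). By the paper's definition, such a region lies outside promoters and carries both H3K27ac and H3K4me1. All 8 senescent regions overlapped a non-senescent one, and 4 of the 12 non-senescent regions overlapped no senescent one. In the whole lists 70.6% of non-senescent and 79.5% of senescent regions overlapped the other list. The unshared regions were 1 at ACOT7, 1 at MAF and 2 at MGST1. The H3K27ac log2 fold changes there were -0.27 at ACOT7, -0.89 at MAF and 0.36 and 0.59 at MGST1. LDHA, SLC16A1, HK1, OAT, PDGFRA and ZYX had 0 enhancer regions in either state. Under the rule HK1 and PDGFRA had no H3K27ac peak, and SLC16A1, OAT and ZYX had only a promoter peak. At these genes the definition left little room for a listed region, so the 0 adds no separate result. The list for the retinoblastoma protein Rb holds 2435 regions that the authors called in senescent cells against the non-senescent libraries, and 0 of them lay at the 10 genes. The share of all 19676 genes with such a region was not computed, so this 0 is not read as a result about the 10 genes. Sites that Rb binds in both states would not be in that list. Per the paper's methods, the Rb regions were called at a cutoff on the unadjusted p. H3K4me1 and Rb had been measured in 2 libraries per state. How single libraries entered the enhancer and Rb lists is not given in the sources used here, so these lists carry no replicate error.

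Of the 34 CTCF peaks, 1 was called changed. Per the paper's methods, the authors kept only CTCF peaks that held the CTCF binding motif. No such filter was applied here, and whether the called peak would pass it was not checked. A peak upstream of PDGFRA, chr4:54227424-54228812, whose edge is 468 bp before the nearest PDGFRA start site, went from 153 counts in non-senescent to 97.0 in senescent cells. This is 0.634 times the level (interval 0.470 to 0.854), a log2 fold change of -0.66 ± 0.22 with an adjusted p of 0.0640. Over the whole table, 3.28% of CTCF peaks were called lost and 2.29% gained. By the authors' DESeq2 comparison 0 of the 34 were gained, and 0 of the 15 peaks with a log2 fold change above 0 had an unadjusted p under 0.05, against 2 of the 19 below 0. These 2 were the PDGFRA peak and a weak distal OAT peak (mean count 18.3, log2 fold change -0.97 ± 0.48) without an adjusted p. Among all 51457 CTCF peaks, 8213 had an unadjusted p under 0.05, a larger share than at the 10 genes. The 2 peaks are too few to give a direction of CTCF change at these genes. The median log2 fold change over the 34 was -0.08. The PDGFRA call rested on the settings: with the trend of the fold change on GC content removed, the log2 fold change was -0.53 and the adjusted p 0.251. Median CTCF log2 fold changes in 20 bins of GC content ran from -0.36 to 0.24.

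A second promoter peak of PDGFRA, chr4:54232120-54235418 in the intron, was the strongest CTCF peak of the 10 genes by mean count, with 733 counts in non-senescent and 684 in senescent cells (log2 fold change -0.10 ± 0.10, adjusted p = 0.618). The other 3 PDGFRA peaks, all distal, had log2 fold changes of -0.18 to 0.16. The lost peak thus lay between neighbours with intervals that included 0.

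**Figure D4:**
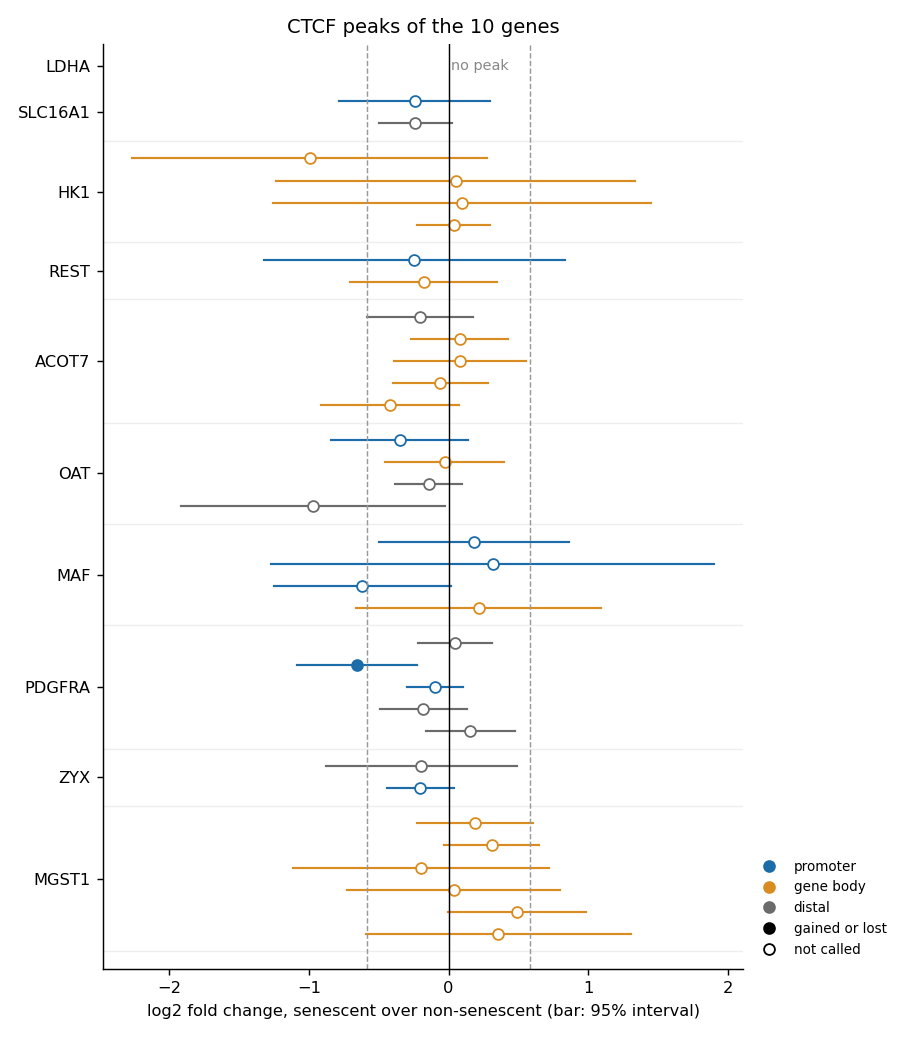
The CTCF log2 fold change (x axis) of all 34 peaks, grouped by gene (y axis), with 95% intervals and dashed lines at a fold change of 1.5. The only filled point is the PDGFRA promoter peak at -0.66, and LDHA had no CTCF peak.

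The CTCF sites of the PDGFRA and ZYX promoters are shown because these were the strongest promoter CTCF peaks that held the core motif the protein binds, and neither was called. The capitals mark the 14 bases of the CTCF core motif, read on the strand of the site (hg38), with 8 bases on each side. The PDGFRA site (chr4:54233456-54233485, - strand) matched the core with 0 mismatches and the ZYX site (chr7:143380319-143380348, + strand) with 1.

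PDGFRA intron site: cccggagcCCACTAGAGGGCGCgacagccc
ZYX promoter site: cagtctggCCAGTAGGGGGCTCcaccaagc

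With at most 1 mismatch, the core motif was found in 35.0% of all CTCF peaks and in 13 of the 34 at the 10 genes. It was found in 31.8% of the CTCF peaks called lost, and the lost PDGFRA peak had no match nearer than 3 mismatches. Among the 34, the peaks with a match had a median mean count of 144 (38.0 to 708) and those without one of 59.0 (8.66 to 380). The search describes these letters and does not show where CTCF is bound.

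At the other genes no CTCF peak was called. SLC16A1, whose H3K27ac was lost, had a CTCF peak within the same promoter, with 61.3 and 51.8 counts (log2 fold change -0.24 ± 0.28, adjusted p = 0.658), and a stronger distal peak 54176 bp away (-0.24 ± 0.13). LDHA had 0 CTCF peaks, and the nearest was 125840 bp from its start sites. ZYX had a promoter peak of 395 and 343 counts (-0.20 ± 0.12, adjusted p = 0.363). The promoter peak of OAT measured -0.35 ± 0.25 and that of REST, with a mean count of 19.2, -0.25 ± 0.55. MAF had 3 promoter peaks, of which the strongest had 198 and 225 counts (0.18 ± 0.35). The precision of the weak peaks was low: the interval for REST, -1.33 to 0.83, reached past the fold threshold in both directions.

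In the gene bodies, HK1 held 4 CTCF peaks, of which only that overlapping an exon near the end of the gene (chr10:69391791-69393804) was strong, with 306 and 314 counts (log2 fold change 0.04 ± 0.13, adjusted p = 0.912). This strong peak is nearer to a start site of TACR2, 15478 bp away, than to one of HK1. The other 3 HK1 peaks had mean counts of 9.74 to 11.9 and no adjusted p. The ACOT7 body peak of highest mean count (177) measured -0.06 ± 0.17, and the strongest of MGST1 (193) measured 0.31 ± 0.17 (adjusted p = 0.322). Of the 6 MGST1 peaks, 5 had log2 fold changes above 0, the highest at 0.49 ± 0.25. That highest peak is nearer to a start site of LMO3 than to one of MGST1, and another of the 5 lies at the LMO3 start. For 5 of the 34 CTCF peaks the adjusted p is blank in the table, and these could not be called.

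A CTCF peak overlapped an H3K27ac peak of the same gene in 12 pairs at 7 genes. The signs of the log2 fold changes matched in 5 of the 12. The pairs were not independent, as the MAF promoter H3K27ac peak was paired with each of 3 CTCF peaks. Every CTCF interval among the 12 included 0, so these signs are uncertain. The share of matching signs over all genes was not computed. At the MAF gene body peak, H3K27ac was lost while CTCF measured 0.22 ± 0.45, and at the OAT promoter H3K27ac measured 0.25 and CTCF -0.35.

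Related genes were described by their promoter peak of highest mean count. Over all 13059 gene promoters, 3.15% of H3K27ac peaks were called gained and 8.94% lost. These shares stand beside the counts of every list and marker list below, and calls in such short lists are not read as results about a list. Of 16 other disallowed genes, 11 had an H3K27ac promoter peak, with 2 gained, 1 lost and a median log2 fold change of -0.05, against 0.04 over all 13059 gene promoters and -0.11 over the 6 promoters of the 10 genes. The chemokine CXCL12 (0.71 ± 0.08) and ARHGDIB (0.75 ± 0.13) were gained, and SMAD3 (-0.78 ± 0.09), which carries TGF-beta signals, was lost. Calls among these genes were in both directions.

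Of 21 genes of hexokinase, lactate and pyruvate handling, 15 had an H3K27ac promoter peak. Of these 1 was lost and 0 were gained, and the median was 0.03. The lost one was SLC16A7, which encodes monocarboxylate transporter 2 (log2 fold change -0.60 ± 0.09, adjusted p = 8.00e-10).

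The 9 corepressors that REST recruits all had H3K27ac promoter peaks and 0 were called, with log2 fold changes of -0.28 to 0.39. Of 14 genes with sites for REST, 12 had a promoter peak and 1 was lost, the neurotrophin BDNF (log2 fold change -3.00 ± 0.37, mean count 43.6). Without it, the 11 others ranged from -0.30 to 0.56 and were not called. In the MAF family, MAFF was lost (-0.70 ± 0.11) and MAFG gained (0.65 ± 0.06) among 6 genes. Of 5 PDGF ligands and other receptors, 2 had promoter peaks, and the ligand PDGFA was gained (0.68 ± 0.14). Of 7 zyxin partners, 6 had peaks and the actin crosslinker ACTN4 was gained (0.62 ± 0.06). The CTCF promoter peak of ACTN1 was lost (-1.14 ± 0.37, adjusted p = 0.0558), where over all genes with such a peak 4.61% were called lost and 0.491% gained. Among 7 ornithine and proline enzymes 0 were called, with a median of 0.31. Of 14 glutathione transferases and thioesterases, 9 had peaks and 2 were lost, ACOT2 (-0.64 ± 0.10) and ACOT4 (-1.15 ± 0.19), which are similar genes of 1 cluster whose reads may in part not be told apart.

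**Figure D5:**
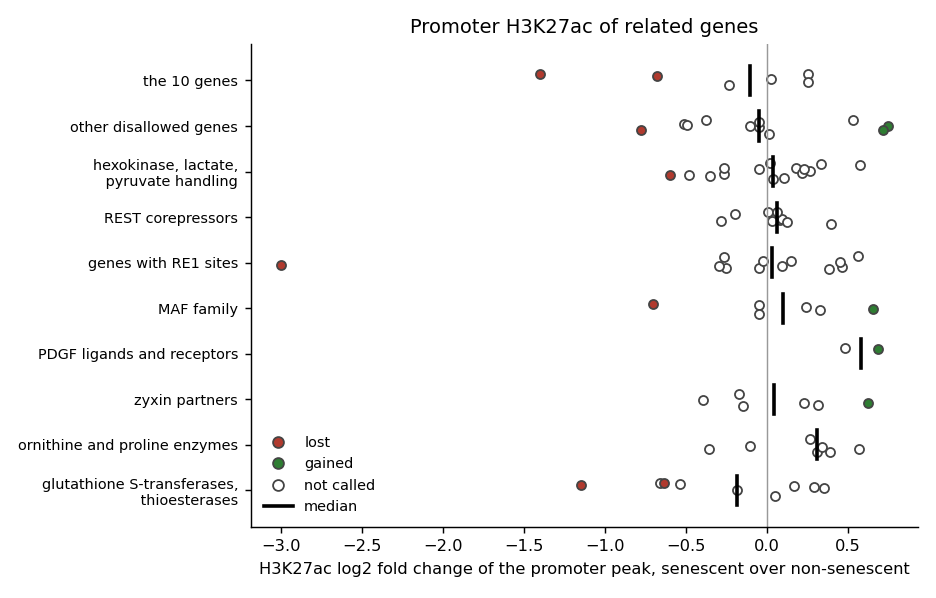
The H3K27ac log2 fold change of the promoter peak (x axis) for each gene of the 10 and of 9 lists of related genes (y axis), with 1 point per gene, shifted vertically at random, and a bar at the median. The list medians lie between -0.19 and 0.58, the latter from 2 genes.

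Markers of other islet and pancreatic cells were read in the same way, since several of the 10 genes are at home in such cells. IAPP was the beta cell marker called gained (0.93 ± 0.15), and the CTCF promoter peak of ABCC8 was lost (-0.87 ± 0.22, adjusted p = 0.00766). The somatostatin gene SST (-0.86 ± 0.29) and HHEX (-0.76 ± 0.12), both of delta cells, and the duct marker KRT19 (-0.74 ± 0.08) were lost. Promoter peaks were found for 3 of 4 alpha cell markers (0 called, and none for GCG), 3 of 4 delta and PP cell markers (not for PPY), 1 of 5 acinar markers (not for PRSS1), 1 of 3 duct markers and 1 of 2 immune cell markers (not for PTPRC). Summed over each marker list, promoter counts in non-senescent and senescent cells were 51033 and 55114 for beta cells, 4011 and 3963 for alpha cells, 1166 and 1013 for delta and PP cells, 1143 and 683 for duct cells, 1399 and 1596 for acinar cells and 3304 and 3784 for immune cells, the last from CD68 alone. Wide peaks weigh most in these sums, such as that of PDX1, with a mean count of 10149 over 20605 bp. By gene, the 10 beta cell markers had a median log2 fold change of 0.05, from -0.48 (G6PC2) to 0.93, with 1 gained and 0 lost. The part of these markers in the changes at the 10 genes was not tested.

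At a stricter test, against a fold change of 1.5 in place of no change, the SLC16A1 promoter was the single call left among the 58 peaks of both tables (adjusted p = 0.000696). The losses at LDHA and MAF, the gain at MGST1 and the CTCF loss at PDGFRA were no longer called there.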

How the data were processed

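Groups follow the antibody and the treatment in the labels. Per the study's methods, the authors aligned reads to hg38 with Bowtie2, called peaks with HOMER (H3K27ac) or MACS2 (CTCF) and compared counts in peaks with DESeq2. They restricted CTCF peaks to those with the CTCF binding motif, a filter not applied here. Tool versions are not given in the sources used here. The deposited mean signal is the average of normalized read counts over libraries, and the authors' log2 fold change, with a standard error, is senescent over non-senescent. The deposited Wald score, p-value and adjusted p-value are the authors' as well. The deposited region lists hold positions alone. A count model had been planned, but the tables hold no values per library, so thresholds were applied to the deposited columns and no model was refitted. The depth of single libraries is therefore unknown. Summed over all peaks, the mean counts were 19239499 (H3K27ac) and 6136424 (CTCF).

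Promoters were 2 kb around protein-coding start sites of GENCODE 44. Regions overlapped when they shared 1 bp. All 24 chromosome names were those of hg38, with 0 regions beyond a chromosome end. Adjusted p-values were recomputed with Benjamini-Hochberg only for alternatives. The functions were tested on simulated data. Python 3.11.15 was used with pandas 2.3.3 and pysam 0.24.0. The 10 genes, the related lists and the tests were chosen with earlier results of these data known. In full were given, for each gene, the promoter peak and the other peak of highest mean count and up to 3 called peaks in each direction, and from a list its called promoters, up to 3 in each direction. A few peaks past the adjusted p alone or next to a threshold were added after their values were seen. A called promoter of a list is not reported here.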

Additional observations from a re-analysis of the deposited data

How the results depend on the processing

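Under 11 alternatives for H3K27ac and 12 for CTCF, the number of losses of H3K27ac at the 10 genes held within a factor of 1.5 in all but 3 for H3K27ac. The 4 lost H3K27ac peaks became 8 with no fold threshold, 1 with a fold change above 2 and 1 in the test against a fold change of 1.5. The 1 gained peak became 3 with no fold threshold and 0 with a fold change above 2, in the test against 1.5, with the values centred on the median of all peaks, with the GC trend removed, and with gene body peaks kept only where no other gene's start site was nearer. The 1 lost CTCF peak became 0 with a fold change above 2, in the test against 1.5, with the GC trend removed and at an adjusted p under 0.05. The last assignment rule for gene bodies and start sites of every GENCODE transcript were alternatives chosen after seeing the data. The numbers of enhancer regions and the gained CTCF peaks moved by less than that factor throughout. Of 202 values for 18 named peaks, 183 kept their direction and call, and 3 changed sign, all CTCF peaks that were not called, with the GC trend removed: the SLC16A1 promoter (0.063), the REST promoter (0.116) and the stronger PDGFRA promoter peak (0.064). Part of the 183 was fixed in advance. Alternatives that changed only the assignment of peaks to genes could alter neither value nor call, and those that changed only a threshold could not alter a direction. A named peak that an alternative dropped was not counted. No paired analysis was possible because the tables hold no values per library, and for the same reason leaving out each replicate was not run. The depth of single libraries is unknown. The highest standard errors among the peaks of the 10 genes were 0.81 for CTCF, at a MAF peak with a mean count of 8.66, and 0.40 for H3K27ac, at an ACOT7 peak with a mean count of 29.8.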
